A study of Mus musculus with 2 samples.

Results

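Accessible chromatin at 43 genes of autophagy and mitophagy was described in mouse megakaryocyte-erythroid progenitors (MEP), progenitors in the bone marrow whose descendants are red cells and platelets. The genes were taken by name from a list of autophagy and mitophagy genes, and all 43 were found among the 21853 protein-coding genes of the GENCODE annotation of mm10 (GRCm38). They were grouped by role. The 4 mitophagy genes were Bnip3, Bnip3l, Fundc1 and Pink1, and the 34 genes of the core machinery formed 5 role groups. Sqstm1, Optn and Nbr1 were the 3 cargo receptors, and Tfeb and Tfe3 the 2 transcriptional regulators.

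The cells came from male adult C57BL/6J mice aged 5 to 6 weeks with no named treatment or allele. ATAC-seq, which marks open chromatin by where the Tn5 transposase can insert adapters, was run on 50000 cells per library. The 2 libraries were labelled biological replicates 1 and 2, but they carry 1 donor entry, and the labels do not say whether separate animals were used. With 1 group there is no contrast between conditions, no test over samples exists and no p-value is given. The comparisons are between gene groups within each library and between the libraries.

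Autophagy encloses part of the cytoplasm in a double membrane, the autophagosome, and delivers it to the lysosome. A kinase complex starts the process, a lipid kinase complex marks the membrane, transfer proteins bring lipid to it, and ubiquitin-like conjugation fixes proteins of the ATG8 family on it. In mitophagy the cargo is the mitochondrion. Maturing mammalian red cells clear their mitochondria in this way, and Bnip3l, also called Nix, is known from mouse reticulocytes as the receptor for this clearance.

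An accessible promoter had, in the IDR-thresholded list of each library, a region within 1 kb of the transcription start site (TSS) of any of its protein-coding transcripts. IDR, the irreproducible discovery rate, scores the repeatability of peak ranks, here over random splits of each library. The promoter fold is the highest fold over local background among those regions, as the authors' caller gave it. It is not scaled between libraries and depth is unknown, so each library is also read by percentile among its 9988 promoters accessible in both. The IDR-thresholded lists held 26353 regions in replicate 1 and 28142 in replicate 2. The MEP label was checked on markers. Promoters of 7 of 8 MEP genes (Gata1, Klf1, Epor, Kit, Tal1, Nfe2 and Zfpm1) were accessible in both libraries, against 45.7% of all genes. Of 6 genes of other lineages, among them Cd3e, Elane, Mpo, Ly6g and Alb, 0 were. In replicate 1 the folds of the 7 ran between 3.75 at Tal1 and 8.94 at Nfe2, with Gata1 at 4.69. A low fold thus also occurred at genes used to mark MEP.

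Of the 43 genes, 38 (88.4%) had an accessible promoter in both libraries, against 45.7% of all protein-coding genes. By library the counts were 41 genes in replicate 1 (47.7% of all genes) and 38 in replicate 2 (47.9%). In the longer pseudoreplicated lists, 42 genes had a promoter region in both libraries, against 56.5% of all genes. All 4 mitophagy genes were accessible in both libraries, and 30 of 34 core genes (88.2%) were. Among the upper 50% of regions by fold the count was 27 (27.7% of all genes). Bnip3l was among the 11 genes lost, with 7.75 in replicate 2 against a cutoff of 7.79. In replicate 1 it passed, with 8.89 against 7.32. The count was 37 with a window of 500 bp (44.4%), and 36 at the most upstream TSS only (42.8%).

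The median fold of the 38 accessible promoters was 8.86 in replicate 1 and 9.33 in replicate 2. For all 9988 accessible promoters the medians were 8.39 and 8.83 in the same libraries. Autophagy promoters thus lay near the middle of accessible promoters, with median percentiles of 57.2 and 57.7. Within the list the spread was wide. The fold ran between 5.13 and 13.6 in replicate 1, and between 5.50 and 14.3 in replicate 2.

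**Figure D1:**
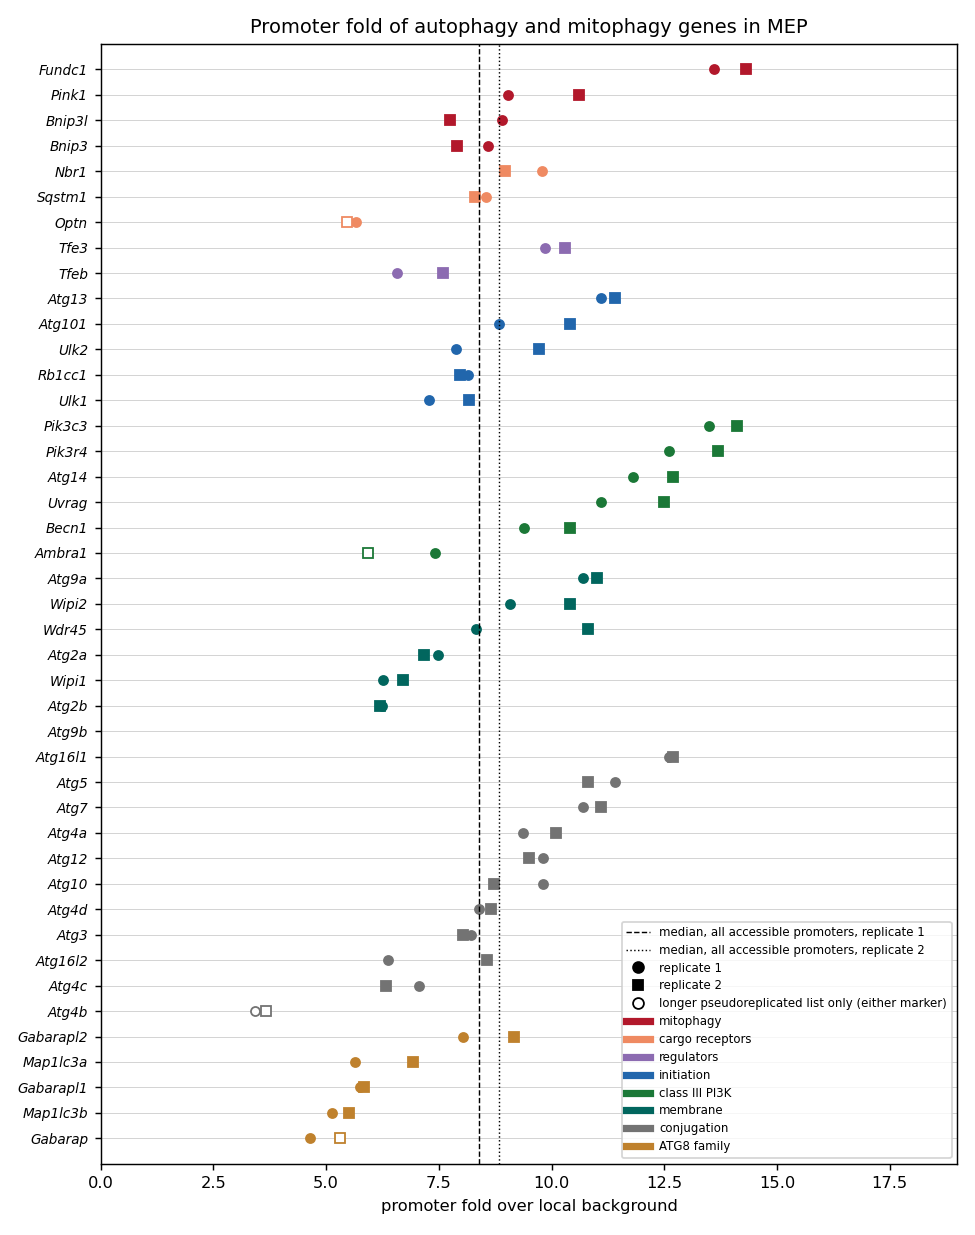
Promoter fold over local background (x axis, linear) of each of the 43 genes (rows, by role, the mitophagy genes on top), with circles for replicate 1, squares for replicate 2 and open markers for a region found in the longer pseudoreplicated list only. Vertical lines mark the medians of all accessible promoters, 8.39 in replicate 1 and 8.83 in replicate 2. Fundc1 and Pik3c3 lie farthest right, and 4 of the 5 ATG8 family genes lie left of both lines.

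Fundc1 encodes a receptor of the outer mitochondrial membrane that acts in hypoxia-induced mitophagy. Its promoter had a fold of 13.6 in replicate 1 and 14.3 in replicate 2 (mean 14.0 ± 0.49, SD, n = 2). That placed it at percentiles 97.5 and 97.7 of the libraries, the highest of the 43 genes in both, though Pik3c3, next in order, differed by less than its SD between libraries. The region spans 1115 bp and its strongest summit lay 26 bp from a Fundc1 TSS on chromosome X.

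Pink1 encodes the kinase that accumulates on damaged mitochondria. Its fold was 9.03 in replicate 1 and 10.6 in replicate 2 (mean 9.81 ± 1.1, SD, n = 2), at percentiles 60 and 74.4. Bnip3l had a fold of 8.89 in replicate 1 and 7.75 in replicate 2 (mean 8.32 ± 0.804, SD, n = 2), at percentiles 57.7 and 33.5. Its paralog Bnip3, a mitophagy receptor induced by hypoxia, had 8.58 in replicate 1 and 7.91 in replicate 2 (mean 8.24 ± 0.476, SD, n = 2), at percentiles 53.0 and 35.9. The order of these 3 genes was the same only at its top, Pink1. Bnip3l and Bnip3 differed by less than the spread between libraries, and their order switched.

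Set against the core machinery, the mitophagy genes had a median fold of 8.96 in replicate 1, and core genes 8.61, a difference of 0.346. In replicate 2 the mitophagy median was 9.25 and the core median 9.61, a difference of -0.363. The sign thus changed between the libraries, and the difference of the means over libraries, -0.00866, was far below its SD of 0.501. No difference in promoter fold between mitophagy and core genes was detectable here.

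The promoter windows of Bnip3 and Pink1 are shown because each holds 1 match to a motif of interest, in capitals. In Bnip3 this is CACGTG, the E-box core within the CLEAR element that TFEB and TFE3 bind, here without the flanks of its full form. In Pink1 it is TGATAA, a form of the site of GATA factors, which include the erythroid regulator GATA1. Both windows come from RefSeq (GRCm38.p6), run from 250 bases before to 50 after the start, and overlap an accessible region of both libraries. The strongest summit of that region lay 262 bp from the nearest own TSS at Bnip3 and 582 bp at Pink1. The overlap thus does not place a match at the summit.
Bnip3 (chr7:138909457-138909756, minus strand): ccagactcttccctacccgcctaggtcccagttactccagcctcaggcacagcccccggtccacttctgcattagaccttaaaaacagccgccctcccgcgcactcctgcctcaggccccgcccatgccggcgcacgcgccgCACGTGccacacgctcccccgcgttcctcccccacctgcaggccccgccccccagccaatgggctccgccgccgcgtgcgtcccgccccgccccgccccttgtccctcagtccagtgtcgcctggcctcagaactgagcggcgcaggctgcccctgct
Pink1 (chr4:138326247-138326546, minus strand): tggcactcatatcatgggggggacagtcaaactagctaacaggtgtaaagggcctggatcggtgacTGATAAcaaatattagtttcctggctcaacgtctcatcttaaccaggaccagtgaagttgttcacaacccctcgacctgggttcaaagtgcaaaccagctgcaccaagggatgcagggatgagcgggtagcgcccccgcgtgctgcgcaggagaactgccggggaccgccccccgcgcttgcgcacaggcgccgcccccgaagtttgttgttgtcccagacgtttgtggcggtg

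Windows were at hand for 36 of the 43 genes (not for Atg12, Atg16l1, Becn1, Bnip3l, Map1lc3a, Pik3c3 and Rb1cc1). All motifs were searched on both strands. Where a gene had several windows, a window overlapping a region accessible in both libraries was taken first. CACGTG occurred in 5 of 36 windows (13.9%), against 7.84% of all 21263 promoter windows. Of the 27 that overlap a region accessible in both libraries, 4 held it (14.8%), against 11.1% of all 8536 such windows. The full palindromic CLEAR form, CACGTG with GT before it and AC after it, occurred in 0 of 36, against 0.419% of all windows. GATA sites, searched as TGATAA or AGATAA and as TGATAG or AGATAG, occurred in 6 of 36 (16.7%), against 26.0% of all windows. Among accessible windows they occurred in 4 of 27 (14.8%), against 17.2%. The 4 include Atg4a, whose window lies at a RefSeq start that is not a GENCODE protein-coding TSS. The other Atg4a window held 0 GATA sites. The Fundc1 window held neither CACGTG nor a GATA site, and its RefSeq start lies downstream of the annotated GENCODE one. Beside Bnip3, the E-box genes were Atg3 with 2 matches, Atg5, Atg7 and Atg14. The Atg7 window overlapped no region accessible in both libraries. The other matches are shown with 15 bases on either side and the E-box in capitals, on the strand of the gene.
Atg3, first match (chr16:45158720-45158755, plus strand): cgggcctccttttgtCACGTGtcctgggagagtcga
Atg3, second match (chr16:45158743-45158778, plus strand): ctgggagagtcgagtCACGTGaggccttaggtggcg
Atg5 (chr10:44268310-44268345, plus strand): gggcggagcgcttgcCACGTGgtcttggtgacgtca
Atg14 (chr14:47568415-47568450, minus strand): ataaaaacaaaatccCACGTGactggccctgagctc

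The regulators differed from each other. Tfeb, the main activator of lysosomal and autophagy genes, had a promoter fold of 6.56 in replicate 1 and 7.60 in replicate 2, at percentiles 21.5 and 31.4. Its relative Tfe3 had 9.86 and 10.3 in the same libraries, at percentiles 72.1 and 71.5. Tfe3 was higher than Tfeb in both libraries, by more than either gene's SD between them (0.338 for Tfe3 and 0.74 for Tfeb). The strongest summit of each lay close to a TSS, 20 bp away at Tfe3 and 25 bp at Tfeb.

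Cargo receptors bind ubiquitinated cargo and ATG8 proteins. Sqstm1, which encodes p62, had a promoter fold of 8.54 in replicate 1 and 8.29 in replicate 2. Nbr1, a relative of p62, had 9.79 and 8.96 in the same libraries. Both lay near the middle of accessible promoters, at percentiles between 41.6 and 71.2. Optn, which encodes optineurin, a receptor in Pink1-driven mitophagy, had a region of fold 5.66 in the IDR-thresholded list of replicate 1. In replicate 2 its region, of fold 5.46, stood only in the pseudoreplicated list, so it was not called in both.

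**Figure D2:**
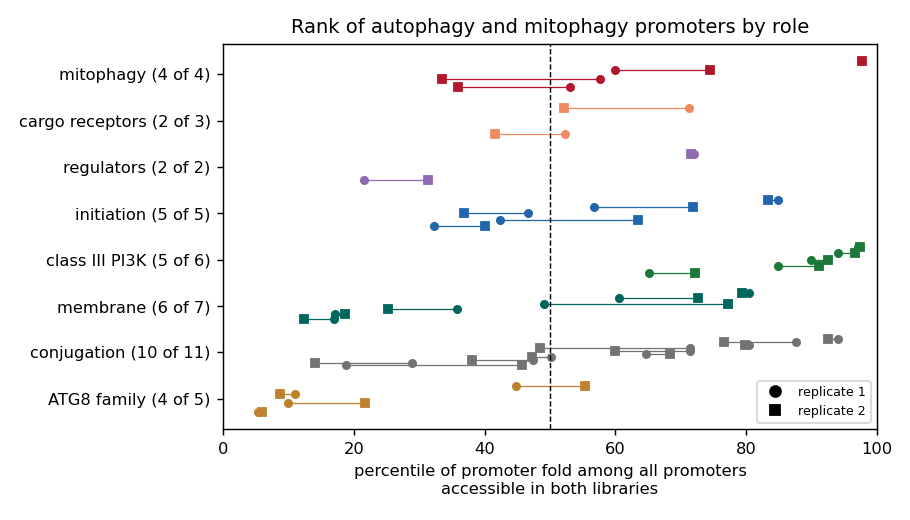
Percentile of each accessible promoter among the 9988 promoters accessible in both libraries, by role group with the mitophagy genes first, circles for replicate 1 and squares for replicate 2, a line joining the values of 1 gene, the dashed line at the median and the number of genes accessible of all in the row label. The class III PI3K group has medians of 90 and 92.5, and the ATG8 family medians of 10.5 and 15.2.

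The class III PI3K complex makes the lipid PI3P on forming autophagosomes, and its promoters ranked highest as a group. Over the 5 genes accessible in both libraries, the median fold was 11.8 in replicate 1 and 12.7 in replicate 2, with median percentiles of 90 and 92.5. Pik3c3, the catalytic subunit VPS34, had 13.5 and 14.1. Pik3r4, the regulatory subunit VPS15, had 12.6 and 13.7. Atg14, which directs the complex to autophagosomes, had 11.8 and 12.7, and Uvrag, which takes its place in the endosomal complex, had 11.1 and 12.5. These 4 genes all lay at percentile 84.9 or above in both libraries. Becn1, the scaffold Beclin 1, was the lowest of the 5 with 9.39 and 10.4. Ambra1, a Beclin 1 partner, was called in replicate 1 only, with a fold of 7.41, and had a region of 5.93 in the pseudoreplicated list of replicate 2.

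The ATG8 family, the ubiquitin-like proteins fixed on the autophagosome membrane, ranked lowest. Over the 4 genes accessible in both libraries the median fold was 5.70 in replicate 1 and 6.37 in replicate 2, with median percentiles of 10.5 and 15.2. Gabarapl2, the highest, had 8.04 in replicate 1 and 9.16 in replicate 2. Map1lc3a had 5.65 and 6.92, Gabarapl1 had 5.76 and 5.83, and Map1lc3b, which encodes the widely used marker LC3B, had 5.13 and 5.50. Gabarapl2 thus stood apart from the other 3 in both libraries. Gabarap was called in replicate 1 only, at 4.64, and its region in the pseudoreplicated list of replicate 2 had 5.31. The class III PI3K genes accessible in both libraries and these 4 did not overlap in either library. Ambra1, left out of that comparison, does overlap, since its 7.41 in replicate 1 lay below Gabarapl2. These groups were set side by side after their values were seen, and genes are not replicates, so the gap is a description.

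The position of the accessible region set Map1lc3b apart from most of the 43 genes. Its strongest region had its summit 783 bp from the nearest own TSS, and in replicate 1 no region covered a Map1lc3b TSS itself. The same held for the initiation kinase gene Ulk2, whose summit lay 736 bp away. In replicate 2 a weaker region covered the TSS of each, with folds of 3.32 for Map1lc3b and 5.71 for Ulk2. The RefSeq windows at these starts are rich in G and C, at 68.0% for Map1lc3b and 74.7% for Ulk2. The part of base composition in these values was not tested.

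The initiation complex was accessible in 5 of 5 genes. Atg13, the adaptor of the complex, was highest with a fold of 11.1 in replicate 1 and 11.4 in replicate 2. Ulk1, the kinase that starts autophagy, had 7.27 and 8.17, the lowest mean of the group. Rb1cc1, which encodes the scaffold FIP200, had 8.15 and 7.97, so it lay above Ulk1 in replicate 1 and below it in replicate 2. Atg101 had 8.83 and 10.4, and Ulk2 7.88 and 9.73. The Rb1cc1 call came from a TSS 8.45 kb downstream of its most upstream one, and that of Atg14 from a TSS 2.21 kb downstream. Counted at the most upstream TSS only, both were lost.

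Genes for membrane supply and lipid transfer were accessible in 6 of 7 cases. Atg9a, the scramblase carried on vesicles, was highest with a fold of 10.7 in replicate 1 and 11 in replicate 2. Atg2b, a lipid transfer protein, was lowest with 6.23 and 6.19. Its paralog Atg2a had 7.49 and 7.17. Among the PI3P-binding WIPI proteins, Wipi2 had 9.07 and 10.4, Wdr45 had 8.32 and 10.8, and Wipi1 had 6.25 and 6.71. Wdr45 shifted most in this group, by a factor of 1.3 between the libraries. Atg9b, the paralog of Atg9a, had no promoter region in the IDR-thresholded or pseudoreplicated list of either library, nor in the conservative list. Its RefSeq window held 2 CpG and 50.7% G and C.

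Of the 11 conjugation genes, 10 were accessible in both libraries. Atg16l1, which places the conjugation complex on the membrane, was highest with a fold of 12.6 in replicate 1 and 12.7 in replicate 2. Its paralog Atg16l2 had 6.38 and 8.56, the largest ratio between libraries of the 38 genes, 1.34. Atg5, conjugated to Atg12, had 11.4 and 10.8, and Atg7, the E1-like enzyme, had 10.7 and 11.1. The E2-like genes were lower, Atg10 at 9.80 and 8.72 and Atg3 at 8.21 and 8.04, and Atg12 itself had 9.80 and 9.49. The ATG4 proteases, which process ATG8 proteins, ranged widely. Atg4a had 9.37 and 10.1, Atg4d 8.40 and 8.65, and Atg4c 7.06 and 6.33. Atg4c had the lowest mean of the accessible conjugation genes, though Atg16l2 was lower in replicate 1. Atg4b, the main LC3 protease in mammals, had a region only in the pseudoreplicated lists, with folds of 3.43 and 3.67. The Atg4b window had the highest G and C content of the 36 genes, 78.0% with 55 CpG, and the part of base composition in the missing call was not tested.

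Some of these promoters are shared with a neighbour, so an accessible region there cannot be assigned to 1 gene. An opposite-strand protein-coding TSS lay within 1 kb of an own TSS at 9 of the 43 genes (20.9%), against 11.4% of all genes and 21.4% of genes with an accessible promoter. The pairs were Atg13 with Harbi1, Atg9a with Ankzf1, Atg2b with Gskip, Atg3 with Slc35a5, Atg4a with Psmd10, Atg4b with Thap4, Atg12 with Ap3s1, Sqstm1 with Mgat4b, and Nbr1 with Brca1. The closest were Atg9a and Ankzf1, 4 bp apart. Among the mitophagy, class III PI3K and ATG8 family genes, 0 had such a partner. Wdr45 shared its start with a same-strand gene, Gm45208.

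Replicate 2 gave higher folds at 26 of the 38 accessible genes (68.4%), close to the 66.7% of all accessible promoters. The median ratio of replicate 2 to replicate 1 was 1.05 for the 38 genes and 1.05 for all. Individual ratios ran between 0.872, at Bnip3l, and 1.34. The folds of the libraries ranked alike, with Spearman's rho of 0.89 over the 38 genes and 0.919 over all 9988. These are correlations across genes that share the same libraries, and genes are not independent replicates.

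The other genes of the pathway, a list of 32 that act around these 43, were accessible at a similar share, 29 of 32 (90.6%). Their median folds were 8.80 in replicate 1 and 9.46 in replicate 2. Calcoco1, a cargo receptor relative, was highest with 13.4 and 13.6. The 3 not called in both were the AMPK subunits Prkaa1 and Prkaa2 and the mitochondrial deubiquitinase Usp30. All 3 had a region in both pseudoreplicated lists, with folds of 2.57 and 2.66 at Prkaa1.

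Distal regions were taken from the conservative list, made by IDR on the true replicates. They overlap no protein-coding TSS ± 1 kb and have their summit inside the gene or within 50 kb of either end. Such a region can count for several neighbours, and its place does not show which gene it acts on. The 43 genes had 219 pairs of gene and region, made by 215 distinct regions. The mean was 5.09 and the median 5 per gene, against 3.18 and 3 for all genes and 4.17 and 4 for genes with an accessible promoter. At least 1 distal region was found at 41 of the 43 genes, against 77.2% of all genes and 9313 of the 9988 with an accessible promoter. At least 5 were found at 22 of 43, against 27.5% of all genes and 3742 of those 9988. The median gene span, which widens the window, was 29.8 kb for the 43 genes, 24.2 kb for genes with an accessible promoter and 17.4 kb for all genes. Per 100 kb of window, the 43 genes had 3.30 regions, genes with an accessible promoter 2.77 and all genes 2.13.

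**Figure D3:**
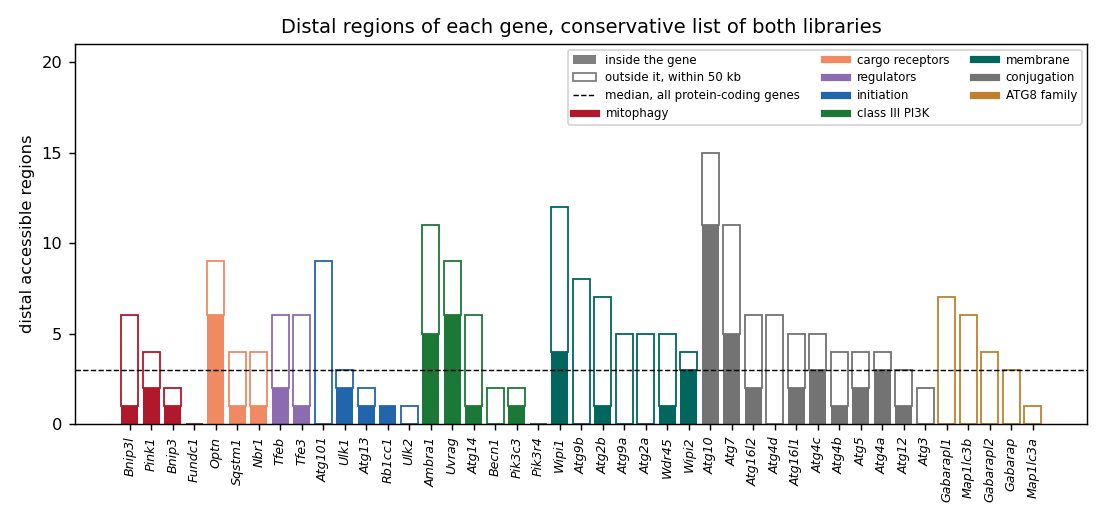
Number of distal regions of the conservative list inside each gene or within 50 kb (y axis) for the 43 genes, by role with the mitophagy genes first, filled for regions inside the gene, open for those outside it, and the dashed line at the median of all genes, 3. Atg10 has 15, and Fundc1 and Pik3r4 have 0.

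Mitophagy genes had fewer distal regions per gene, with a mean of 3.00, against 5.24 for the core machinery. Their spans were shorter, at a median of 17.2 kb against 36.3 kb, and per 100 kb of window the values were 2.55 and 3.23. Bnip3l had 6 regions, Pink1 4, Bnip3 2 and Fundc1 0. Fundc1, which had the strongest promoter of the 43, thus had no distal region. The same held for Pik3r4, at percentiles 94.1 and 96.6 for its promoter. Across the 38 accessible genes, promoter fold and number of distal regions had a Spearman's rho of -0.233, and across all 9988 of -0.21, as a description over genes of the same libraries.

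At Bnip3l the 1 region inside the gene was in an intron 9.13 kb from the most upstream TSS, with a fold of 10.3 in replicate 1 and 10.1 in replicate 2. That was above the gene's own promoter in both libraries. A second strong region, chr14:66953163-66953609, lay 55.6 kb from the most upstream TSS, beyond the 3' end, with 10.4 and 9.12. At Pink1 the strongest lay 43.3 kb downstream in an intron of Kif17, at chr4:138282768-138283365, with 9.31 and 11.4. Inside Pink1 itself, an intronic region had 4.97 and 6.17. At Bnip3 the stronger of 2 regions lay 10.3 kb upstream, at chr7:138919053-138920053, with 6.24 and 6.37. The other, in an intron, stood in neither IDR-thresholded list.

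**Figure D4:**
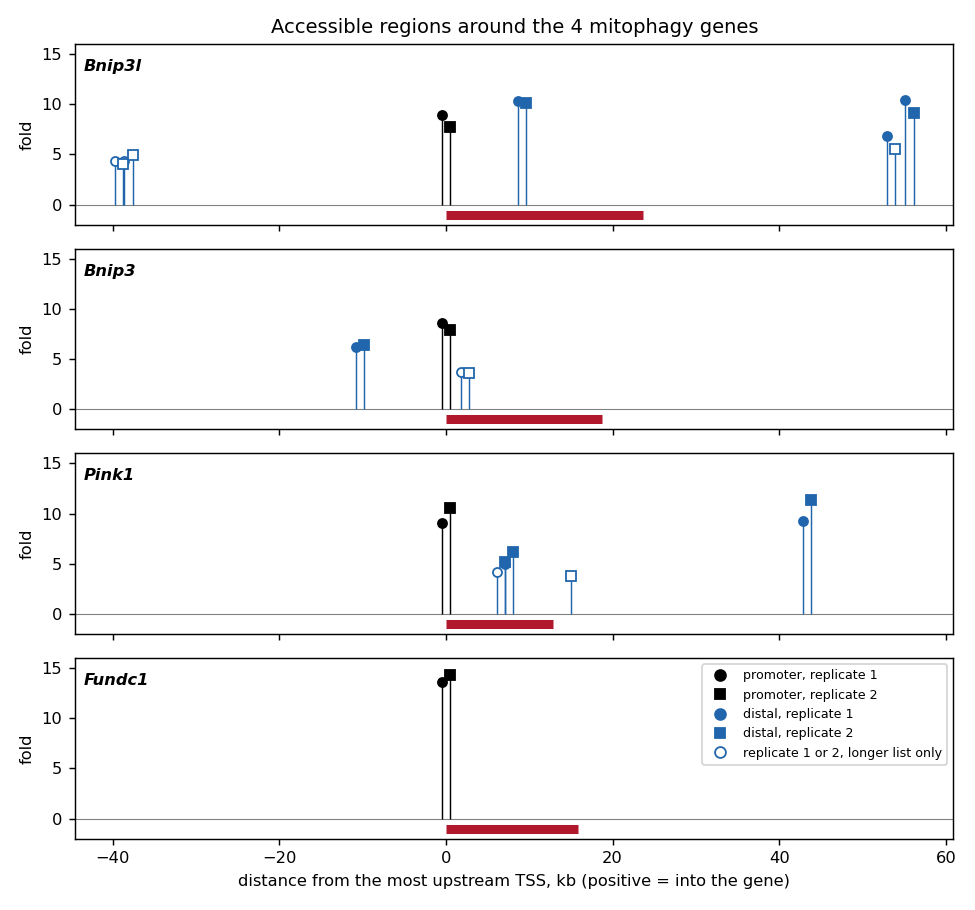
Fold of accessible regions (y axis) around the 4 mitophagy genes by distance from the most upstream TSS in kb, positive into the gene, with black for promoter and blue for distal regions, circles for replicate 1 and squares for replicate 2, each drawn slightly to either side of its summit. Bars mark the gene, and open markers a region in the longer list only. Fundc1 shows its promoter alone, and a Bnip3l region of the conservative list found in neither library's lists is not drawn.

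The 201 bases around the strongest distal summit of Pink1 and of Bnip3 are shown, on the plus strand of GRCm38, because GATA1 is a main erythroid regulator. Capitals mark the GATA matches on either strand, where CTATCT is AGATAG read on the other strand and TGATAG and AGATAG overlap at Pink1.
Pink1 (chr4:138282883-138283083, plus strand): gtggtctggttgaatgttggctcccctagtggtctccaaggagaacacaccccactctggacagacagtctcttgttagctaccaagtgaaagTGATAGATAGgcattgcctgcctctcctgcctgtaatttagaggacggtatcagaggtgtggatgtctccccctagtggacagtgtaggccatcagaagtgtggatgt
Bnip3 (chr7:138919750-138919950, plus strand): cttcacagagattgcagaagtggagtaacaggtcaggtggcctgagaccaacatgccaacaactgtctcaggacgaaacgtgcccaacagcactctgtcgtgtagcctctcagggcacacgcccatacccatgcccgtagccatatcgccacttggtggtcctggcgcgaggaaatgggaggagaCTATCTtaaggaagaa

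A GATA site lay within 100 bases of the summit in 124 of the 215 distal regions (57.7%), against 53.8% of all 32778 distal regions. For the mitophagy genes it was 7 of 12 regions and for the core machinery 105 of 177 (59.3%). Within the core the share ran between 38.1% in the ATG8 family (8 of 21) and 69.2% among conjugation genes (45 of 65). The E-box-GATA composite, CTG and AGATAA with 8 unspecified bases between them, the spacing at which TAL1 and GATA1 bind together, occurred in 7 regions (3.26%), against 3.33% of all. The share is that of distal regions at large. The 7 composites are shown with 15 bases on either side, on the strand of the match (GRCm38), with the whole composite in capitals. Each is named for the gene its region counted for. The regions named for Atg14, Atg16l1 and Wipi1 lay in introns of Fbxo34, Inpp5d and Prkar1a, and that for Atg4a in an exon of Psmd10. The Uvrag region stood in neither IDR-thresholded list. The region at Atg4a lies at a RefSeq start that is not a GENCODE protein-coding TSS.
Optn (chr2:5078133-5078179, minus strand): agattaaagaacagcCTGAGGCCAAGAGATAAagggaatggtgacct
Wipi1 (chr11:109656401-109656447, minus strand): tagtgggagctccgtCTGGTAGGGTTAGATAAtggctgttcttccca
Wipi2 (chr5:142650970-142651016, plus strand): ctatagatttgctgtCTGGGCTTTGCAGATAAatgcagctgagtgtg
Uvrag (chr7:98894927-98894973, minus strand): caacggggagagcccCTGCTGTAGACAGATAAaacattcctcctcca
Atg14 (chr14:47522571-47522617, minus strand): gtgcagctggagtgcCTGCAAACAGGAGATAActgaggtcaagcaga
Atg16l1 (chr1:87712448-87712494, minus strand): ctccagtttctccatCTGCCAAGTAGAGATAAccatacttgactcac
Atg4a (chrX:140953736-140953782, plus strand): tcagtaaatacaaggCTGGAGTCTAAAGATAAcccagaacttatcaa

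The number of distal regions differed widely between genes. Atg10, which spans 289 kb, had 15 regions, of which 11 lay inside it, and 99.3% of all genes had fewer. Wipi1, which spans 38.6 kb, had 12 regions, 4 inside the gene and 8 outside it, and 10 of the 12 held a GATA site. Ambra1 and Atg7 had 11 each, and Atg101, Optn and Uvrag 9 each. All 9 regions of Atg101 lay outside the gene, and for 0 of them was Atg101 the gene of the nearest TSS. Over the 43 genes, the span and the number of distal regions had a Spearman's rho of 0.13. Atg9b, whose promoter had no region in the conservative list, still had 8 distal regions from it, and 0 of these were within Atg9b.

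The 10 distal regions of highest mean fold over the libraries all counted for core genes, for which 177 of the 215 distinct regions counted. By that mean the first pair was nearly level. One, chr15:101246090-101246685, had 12.8 in replicate 1 and 14.7 in replicate 2. It counted for Atg101 but lay 7.8 kb from the TSS of Nr4a1, a nuclear receptor gene. The other, chrX:7713871-7714837, had 13.3 and 14.0 and counted for both Wdr45 and Tfe3. It covers the annotated start of the Wdr45 gene, at 7714333, which is not a TSS of a protein-coding transcript. Its summit lay 7.35 kb upstream of the most upstream protein-coding TSS of Wdr45, so the region counted as distal. Introns of Ambra1 (chr2:91834620-91835940, 11.9 and 12.7) and Atg7 (chr6:114659337-114660543, 11.7 and 12.1) followed. A region in an exon of Aoc3 counted for Becn1, with 11 and 12.3. Of the other 5, 2 lay in introns of Atg10, with the TSS of Rps23 nearest. Introns of Wipi2 and Rb1cc1 held 1 each. The last lay between genes and counted for Atg14, with the TSS of Fbxo34 nearest, at 26.4 kb. The folds of these 5 lay between 10.2 and 12.7. These values lie above the medians of the 38 promoters, 8.86 and 9.33, but the 10 were picked for high fold. The median pooled fold of all 215 distal regions was 6.20.

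By position, 138 of the 215 distal regions lay in introns (64.2%), 15 in exons and 62 between genes. Only 71 lay inside the autophagy gene they counted for, and for 78 it was the gene of the nearest TSS. Both IDR-thresholded lists held 106 of them (49.3%), against 38.9% of all distal regions. Their median pooled fold in the conservative list was 6.20, close to the 6.36 of all distal regions.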

How the data were processed

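Values came from peak lists of 2 ATAC-seq libraries on mm10, per the file headers and labels. The deposited fold (a ratio per peak over local background, read from its column and values) and the deposited −log10 p per peak were made by the authors' caller; folds were not scaled between libraries. The aligner, the caller, their versions and the Tn5 shift were not given in the sources used here. The depth is unknown. Overlapping or touching peaks were merged into regions carrying the summit and fold of the strongest peak. TSS were the 54361 protein-coding ones of GENCODE M21, whose genome matched the peaks (0 passed a chromosome end). Scripts used Python 3.11.15, numpy 2.4.6, pandas 2.3.3 and pysam 0.24.0, and were tested on simulated peaks. Some members of the marker and pathway lists and 1 sequence are not reported here by name. The genes, role groups, motifs and other lists were chosen with earlier results of these data known.

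Named in full were the mitophagy genes, cargo receptors and regulators, the highest and lowest promoter of each other role group, genes not called in both libraries, the 5 genes with most distal regions (with ties) and the 10 strongest distal regions; further values complete the groups. Alternatives changed the list, the fold threshold, the promoter window, the TSS, the distal window and the library. The deposited pooled pseudoreplicated, archived and IDR-ranked lists were not used. Base-composition bands were set after the data were seen.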

Additional observations from a re-analysis of the deposited data

How the results depend on the processing

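The count of 38 genes accessible in both libraries was 42 in the pseudoreplicated lists, 37 with a 500 bp window (Map1lc3b lost), 36 at the most upstream TSS only, and 27 among the upper 50% of regions by fold. With 1 library it was 38 to 41. The mean over the libraries of the median promoter fold, 9.09, was 8.70 in the pseudoreplicated lists, which add weaker promoters, and 8.86 to 9.33 with 1 library. The mitophagy minus core difference in fold stayed within 1 SD of 0 in every alternative run, between -0.363 and 0.365. Distal regions per gene, 5.09, were 9.26 in the replicated list, 4.58 in the pooled IDR-thresholded list, 2.35 among the upper 50% by fold, 1.65 inside the gene only, 3.56 within 50 kb of the most upstream TSS, 7.21 with a flank of 100 kb, and 3.02 to 3.05 with 1 library. The mean over the 43 genes exceeded that over all genes in each of these. The mitophagy minus core difference in distal regions per gene, -2.24, took the values -3.38, -1.65, -1.16, -0.647, -1.03 and -3.88 in the same order, and -1.37 to -1.03 with 1 library; the construction of each alternative sets how many regions can count. No paired analysis was possible because there is 1 group. Depth is unknown, so a missing call does not show that a region is closed, and its cause was not tested. In replicate 2 the uncalled promoter regions of Ambra1, Optn and Gabarap had folds of 5.93, 5.46 and 5.31. The lowest fold there among promoters accessible in both libraries was 3.48.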

Other observations

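Promoter windows differed in accessibility by base composition. Of RefSeq windows below 50% G and C, 11% overlapped a region accessible in both libraries, against 42.8% at 50 to 60%, 64.3% at 60 to 65%, 65.7% at 65 to 70%, 56.0% at 70 to 75% and 39.0% at 75% and over. Among the 36 autophagy genes with a window, 4 of 8 were accessible below 50%, 8 of 10 at 50 to 60%, 7 of 7 at 60 to 65%, 6 of 7 at 65 to 70%, 2 of 3 at 70 to 75% and 0 of 1 above, the last being Atg4b. These counts take an accessible window of a gene first, which the shares of all windows do not, so they lean upward. Atg7, Wdr45, Map1lc3b and Ulk2 were not accessible by these windows, though their promoters were called by GENCODE TSS. The Atg4a window used, at 40.0%, lies at a RefSeq start that is not a GENCODE protein-coding TSS.

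Other motifs were counted too. In the 36 promoter windows, CCGGAAGT, an ETS site, occurred in 2 (5.56%, against 5.15% of all windows), and TGACNNNGC, the core of the antioxidant response element, in 3 (8.33%, against 13.0%). Of the 27 that overlap a region accessible in both libraries, 7.41% and 3.7% held them. For all such accessible windows the shares were 10.8% and 15.3%. In the 215 distal regions, the core of the antioxidant response element occurred in 21 (9.77%, against 10.9% of all distal regions). TGTTTAC, a FOXO site, occurred in 10 (4.65%, against 2.48% of all distal regions), 2 of them among the 12 of the mitophagy genes. Those 2 were weak, with pooled folds of 3.84 at Bnip3 and 3.20 at Bnip3l, and stood in neither IDR-thresholded list. The NRF1 palindrome was in 0 promoter windows and 0 distal regions of these genes, against 1.33% of all promoter windows. The FOXO site was in 0 of the 36 promoter windows, against 3.01% of all promoter windows.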
